A study of Mus musculus with 16 samples.

Results

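The comparison described here is that of cortical neurons loaded with α-synuclein fibrils against untreated neurons when both had been co-cultured with microglia. Its members were chosen by their titles in the deposited labels, which gave 4 loaded and 4 untreated co-culture libraries, 8 of the 16 libraries of the study. The neurons were primary cortical cells of C57BL/6 mouse embryos taken at embryonic day 15 to 16 and grown in vitro for 14 days. Loaded neurons had been exposed to Atto488-labelled fibrils at 0.1 µM for 16 h and washed, untreated neurons had no fibrils, and both then shared a 6 h co-culture with microglia. The other 8 libraries, 4 loaded and 4 untreated, were of the same neurons kept without microglia, and they serve below only as a reference for the same fibril comparison. The 4 groups were read with a kit that captures the 3′ ends of polyadenylated transcripts, so counts do not scale with gene length.

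α-Synuclein is a presynaptic protein that misfolds into fibrils in Parkinson's disease and related disorders, and fibrils taken up by neurons are held largely in endosomes and lysosomes. Microglia, the resident phagocytes of the brain, bind, engulf and degrade such fibrils, and cells can exchange aggregates and organelles along thin actin-based bridges called tunnelling nanotubes. The title of the study names these bridges, and the comparison here asks which neuronal transcripts differ with fibril load once microglia are present.

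No transcript passed the test for a difference between loaded and untreated co-cultures. In edgeR, 0 of 13139 genes were called at an adjusted p under 0.05 (0%), and the adjusted p was 1 for every gene. Without adjustment, 483 genes had p under 0.05, or 3.68% of those tested, where 657 would be reached by chance. Of these, 202 were higher in loaded co-cultures (1.54% of genes tested) and 281 were lower (2.14%). The median log2 difference of all genes, loaded minus untreated, was -0.04. For 255 genes (1.94%) the CPM (counts scaled by TMM to a common library size) of the 2 groups did not overlap, 119 with loaded libraries higher (0.906%) and 136 with loaded libraries lower (1.04%). Limma-voom called 0 genes and had 529 with an unadjusted p under 0.05, and limma on the authors' normalized values called 0 and had 421. DESeq2 called 130 (0.989%), which are described at the end. All gene values below are therefore descriptions of these libraries, and no gene named was called by edgeR or either limma fit.

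The size of difference that could be seen was limited by the spread between libraries. Total counts ran from 6511516 to 11947749 in the 8 libraries, with 9.35% to 18.5% taken by the ribosomal precursor Rn45s, and 10875 to 13079 genes were detected. Between 41 and 666 genes per library were at 0 although the other libraries averaged at least 100 counts, with the most in replicate 1 of the loaded co-cultures. The Pearson correlation of log2 CPM had a median of 0.694 over the 6 pairs of untreated co-cultures, 0.709 over the 6 pairs of loaded co-cultures and 0.715 over the 16 pairs that joined the groups, so loaded libraries were as like untreated ones as like each other. The 95% interval of the log2 difference lay within ±1, a 2-fold difference, for 1178 genes (8.97%), and for 869 of the 1660 genes above 100 CPM (52.3%). For those 1660 genes the median standard error was 0.357. Nothing in the labels states whether each library is a culture or an animal of its own, so the p-values given rest on library-to-library spread that could be technical.

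The neuronal label was checked against marker genes. Transcripts of neuronal identity summed to 2772, 4933, 4770 and 2228 CPM in untreated co-cultures 1 to 4, and to 3058, 2542, 3596 and 3311 CPM in loaded ones, so neuronal RNA was present in each library and the groups overlapped. Map2, a microtubule protein of dendrites, had 720, 757, 536 and 616 CPM untreated and 912, 689, 639 and 777 CPM loaded. Glial transcripts were abundant beside these: markers of astrocytes summed to 2606 to 12070 CPM untreated and 1920 to 8070 CPM loaded, and those of the oligodendrocyte lineage are given further on. Inhibitory neuron markers stayed between 16.8 and 231.6 CPM, and those of vessels and fibroblasts at or under 29.3 CPM.

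Microglial RNA was uneven. The 20 identity genes of microglia summed to 889.6, 25.2, 70.9 and 15.3 CPM in untreated co-cultures 1 to 4 and to 1555, 48.4, 97.5 and 17.4 CPM in loaded ones. Replicate 1 of each group therefore held far more microglial RNA than the others, and how neurons and microglia were separated before RNA isolation is not described in the labels. Csf1r, the growth factor receptor on which microglia depend, had 64.4, 0, 0 and 0 CPM untreated and 287, 0, 0.336 and 0 CPM loaded. Of the 20 identity genes, 2, 11, 15 and 18 were at 0 in the untreated libraries and 3, 12, 6 and 16 in the loaded ones. A count of 0 allows up to 3 counts, which is 0.226 to 0.471 CPM at these depths and covers counting error only. The median log2 difference of the 14 identity genes tested was 0.81, it was -2.23 without loaded replicate 1 and 4.77 without untreated replicate 1, so its direction turned with 1 library. Without both replicate 1 libraries it was 1.11, over the 11 genes tested there.

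**Figure D1:**
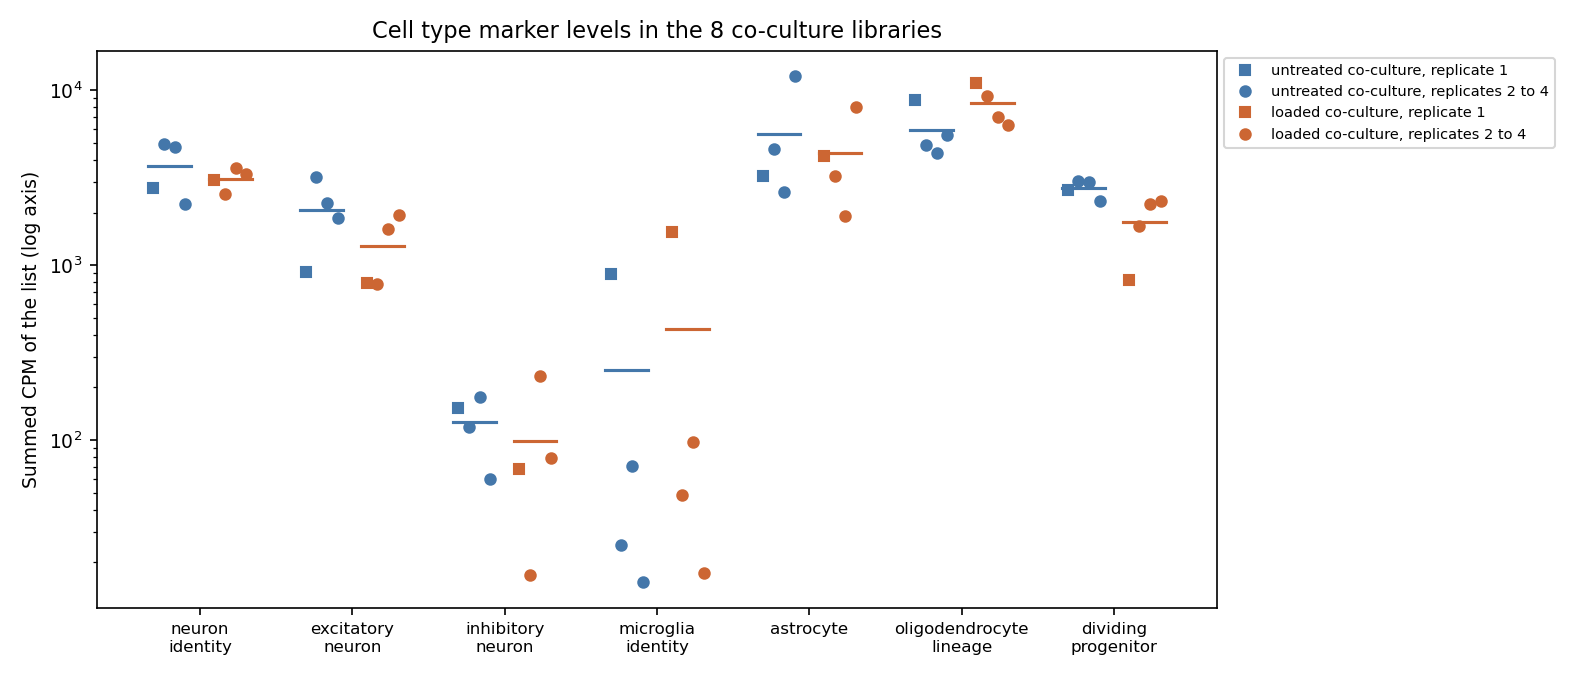
Summed CPM of 7 cell type marker lists (log axis) in the untreated (blue) and loaded (orange) co-culture libraries, with replicate 1 as squares and bars at group means. Microglial markers reached 889.6 and 1555 CPM in replicate 1 and lay between 15.3 and 97.5 CPM in the other 6 libraries, while the groups overlapped for neuronal, astrocyte and oligodendrocyte-lineage markers.

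Genes were ranked by p among those with a mean log2 CPM above 2 over the co-cultures, without predicted gene models and pseudogenes. The 10 with the smallest p among positive differences were Sirt2, Hipk2, Arfgap1, Ehd1, Cilk1, Cdc37l1, Vxn, Bcas1, Fbxo7 and Prox1. Sirt2 (chr7:28766735-28788661, plus strand), an NAD-dependent deacetylase that is abundant in myelinating glia, had 314, 295, 202 and 288 CPM in untreated co-cultures and 893, 808, 582 and 331 CPM in loaded ones. All 4 loaded libraries lay above all 4 untreated ones, and the log2 difference was 1.25 ± 0.35 (SE; 95% interval 0.52 to 1.98; unadjusted p = 0.0018). Ehd1 (chr19:6276725-6300096, plus strand), an ATPase that returns endocytosed receptors to the cell surface, had 113, 63.5, 57.9 and 102 CPM untreated and 344, 142, 224 and 129 CPM loaded. Its groups did not overlap either, and its log2 difference was 1.32 ± 0.42 (SE). Bcas1 (chr2:170346991-170427845, minus strand), which marks oligodendrocytes as they form, had 556, 209, 330 and 265 CPM untreated and 1860, 964, 917 and 390 CPM loaded. Here loaded replicate 4 lay within the untreated range, and the log2 difference was 1.60 ± 0.53 (SE). Fbxo7 (chr10:86021972-86051873, plus strand), an F-box protein whose mutation causes a form of parkinsonism, had 85.4, 63.3, 48.3 and 48.3 CPM untreated and 254, 156, 75.0 and 94.5 CPM loaded (log2 difference 1.24 ± 0.42, SE), with loaded replicate 3 inside the untreated range.

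Of the other 6 genes of this kind, all but Prox1 were without overlap between the groups. Hipk2, a nuclear kinase of stress and cell death pathways, had 65.5 to 92.4 CPM untreated and 126 to 305 CPM loaded, and Arfgap1, which switches off the Arf1 GTPase of the Golgi, had 14.1 to 41.1 and 49.3 to 143 CPM. Cilk1, a kinase of the primary cilium, had 80.5 to 102 and 123 to 256 CPM. Vxn had 119 to 350 and 373 to 769 CPM, Cdc37l1, a relative of the Hsp90 co-chaperone Cdc37, had 115 to 216 and 230 to 582 CPM, and Prox1, a homeobox transcription factor, had 19.5 to 45.6 and 35.2 to 140 CPM. Vxn and Cdc37l1 overlap a gene on the opposite strand near their 3′ ends, and since the strand setting of the counting is not given in the sources used here, their reads may include those of the neighbour. Groups did not overlap for 7 of the 10, which were chosen by p from this same comparison, while 0.906% of all genes were without overlap and higher in loaded co-cultures. Loaded replicate 1 was the highest loaded library for all 10, and loaded replicate 4 the lowest for 8. The log2 differences ran from 0.98 to 1.71, and without loaded replicate 1 from 0.61 to 1.28.

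Under the same limits, the 10 with the smallest p among negative differences were Lpin2, Dlc1, H1f4, Pam, Ssbp3, Vegfa, Zfp787, Fxyd7, Prmt8 and Ciao2b. The pseudogene Atp6v0c-ps2 was left out, at a log2 difference of -3.96 (edgeR, unadjusted p = 0.0027). Il34 and Shank3, given at the end, fell below the CPM limit. Lpin2 (chr17:71182560-71249817, plus strand), a phosphatidate phosphatase of lipid synthesis, had 128, 118, 68.3 and 95.5 CPM untreated and 27.4, 54.1, 50.6 and 15.7 CPM loaded. Each loaded library lay below each untreated one, and the log2 difference was -1.47 ± 0.43 (SE; 95% interval -2.35 to -0.59; unadjusted p = 0.0022). Dlc1 (chr8:36567751-36953143, minus strand), which turns off small GTPases of the actin cytoskeleton, had 80.6, 45.8, 75.3 and 45.3 CPM untreated and 14.8, 21.7, 22.9 and 32.3 CPM loaded. It was also without overlap, with a log2 difference of -1.43 ± 0.42 (SE). Vegfa (chr17:46016993-46032369, minus strand), the angiogenic factor induced by low oxygen, had 85.3, 249, 357 and 163 CPM untreated and 43.8, 60.2, 128 and 136 CPM loaded. Untreated replicate 1 lay inside the loaded range, and the log2 difference was -1.21 ± 0.44 (SE).

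Several of the other genes in this direction are expressed in neurons. Prmt8, an arginine methyltransferase of the brain, had 15.5, 45.3, 49.7 and 15.5 CPM untreated and 3.47, 0, 10.7 and 1.49 CPM loaded. Fxyd7, a regulator of the sodium pump, had 5.49 to 30.9 CPM untreated and 1.26 to 4.87 CPM loaded, and Pam, which amidates neuropeptides, had 58.6 to 213 and 15 to 55 CPM. Ssbp3, a cofactor of transcription, had 62.4 to 201 CPM untreated and 30 to 64.5 CPM loaded, with a small overlap. The linker histone H1f4 had 130 to 179 CPM untreated and 49.5 to 94.1 CPM loaded, but it is 1 of a family of near-identical histone genes and shares its 3′ end with annotated neighbours, so its count is uncertain. Ciao2b, a factor of iron-sulphur cluster assembly, had 58.8 to 91.8 CPM untreated and 4.42 to 45.5 CPM loaded, and Zfp787 had 32.9 to 63.7 and 14.8 to 28.4 CPM. Groups did not overlap for 8 of the 10, chosen by p in the same way, against 1.04% of all genes without overlap and lower in loaded co-cultures, and the log2 differences ran from -3.0 to -1.21.

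**Figure D2:**
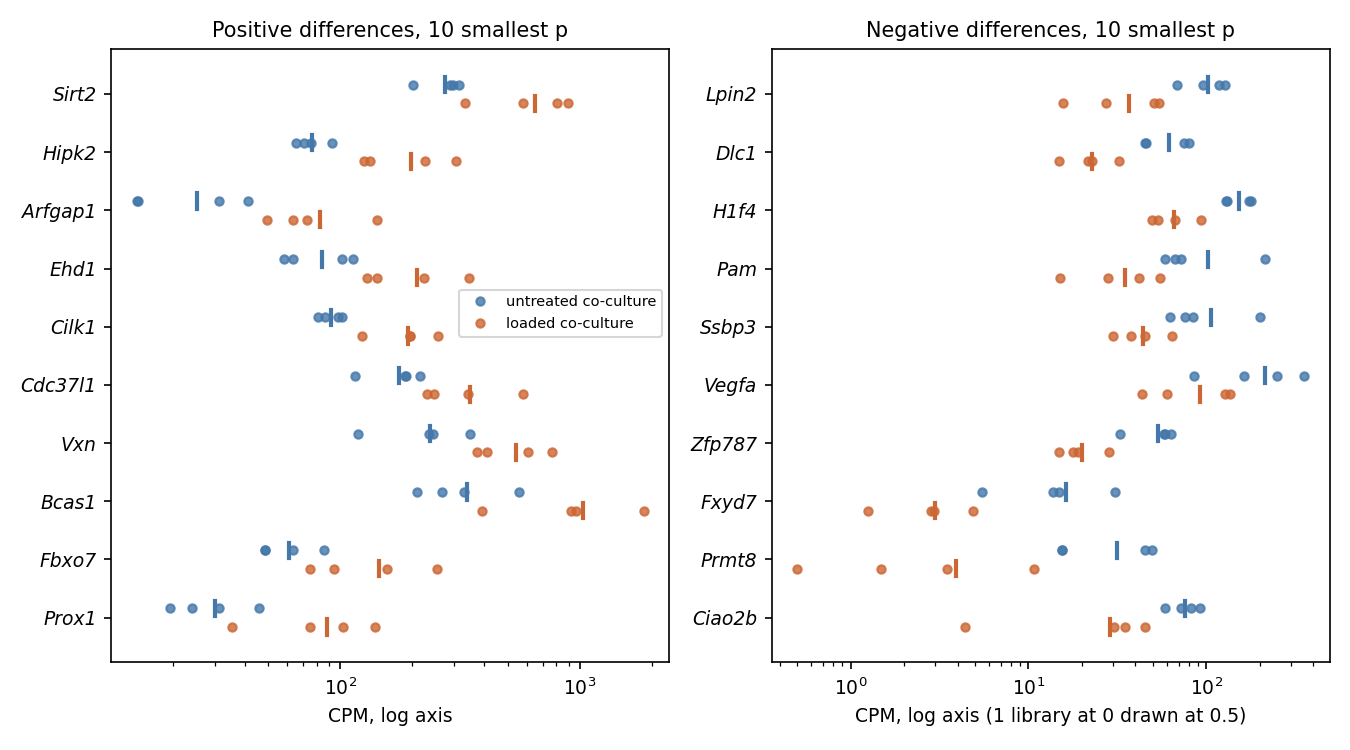
CPM (log axis) of the 10 genes with the smallest p in each direction, 4 untreated (blue) and 4 loaded (orange) co-culture libraries per gene, with vertical bars at group means. Only genes with a mean log2 CPM above 2 over the co-cultures were ranked, without predicted gene models and pseudogenes. Sirt2 lay between 202 and 314 CPM untreated and between 331 and 893 CPM loaded, and Lpin2 between 68.3 and 128 CPM untreated and between 15.7 and 54.1 CPM loaded; 1 loaded library of Prmt8 was at 0.

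Genes of the oligodendrocyte lineage, the glia that form myelin, were mostly higher with fibrils. Of 18 members tested, 17 had a positive log2 difference, 0 passed, and the median was 0.69 against -0.04 over all genes. Their summed level was 8816, 4873, 4389 and 5532 CPM in untreated co-cultures 1 to 4 and 11030, 9299, 7078 and 6320 CPM in loaded ones, so the groups overlapped through untreated replicate 1. Without any 1 co-culture library, 14 to 17 members stayed positive, with medians of 0.34 to 0.88, and without both libraries rich in microglial RNA 17 did, with a median of 0.63. In bulk RNA, fewer cells of a type and less RNA per cell cannot be told apart, which holds for every cell type list here.

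Members of this lineage differed in the size of their values, and the order in which they are given here was chosen after their values were seen and was not tested. Pdgfra, the PDGF receptor by which oligodendrocyte precursors proliferate, was the negative member, with 504, 419, 342 and 498 CPM untreated and 136, 264, 261 and 525 CPM loaded (log2 difference -0.57 ± 0.38, SE). Olig1, a transcription factor of the whole lineage, had 1910, 1210, 1050 and 1500 CPM untreated and 1210, 1740, 1400 and 1730 CPM loaded (log2 difference 0.10 ± 0.35, SE). Olig2, a related factor, and Cspg4, a proteoglycan of precursors, lay at 0.23 ± 0.44 and 0.13 ± 0.43 (SE). Among genes known to be switched on as precursors become oligodendrocytes, Bcas1 is given above. Enpp6, a phosphodiesterase of newly formed oligodendrocytes, had 73.2, 60.5, 37.8 and 128 CPM untreated and 231, 132, 95.2 and 148 CPM loaded (log2 difference 1.02 ± 0.43, SE; unadjusted p = 0.0257). Cnp, a myelin-associated phosphodiesterase, had 562, 200, 206 and 470 CPM untreated and 1260, 568, 523 and 333 CPM loaded (0.90 ± 0.47, SE). Mbp, the basic protein of myelin, had a log2 difference of 0.65 ± 0.34 (SE), and Gpr17, a receptor of differentiating precursors, of 0.98 ± 0.64 (SE). Mog, a glycoprotein of the myelin surface, had the highest estimate of the list (3.37 ± 2.94, SE), which is not usable because the gene was at 0 in 3 untreated libraries and at most 8.86 CPM in the loaded ones. Bcas1 and Enpp6 were the 2 members with an unadjusted p under 0.05. Cnp and Gpr17 overlap a gene of the opposite strand at their 3′ ends.

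In neurons alone, 13 of the 18 members were positive, with a median of 0.76, and 6 had an unadjusted p under 0.05 in that direction against 4.03% of all genes. The log2 difference with fibrils was 1.80 ± 0.53 for Bcas1, 1.75 ± 0.48 for Cnp, 0.95 ± 0.43 for Enpp6, 1.21 ± 0.35 for Sirt2 and -1.22 ± 0.38 for Pdgfra (SE), each with the sign it had in co-culture, while Olig2 had the opposite sign (-0.24 ± 0.44, SE). The difference between both fibril effects, tested as the interaction in edgeR, was -0.19 ± 0.73 for Bcas1, -0.85 ± 0.66 for Cnp, 0.07 ± 0.60 for Enpp6, 0.04 ± 0.49 for Sirt2, 0.65 ± 0.53 for Pdgfra and 0.47 ± 0.62 for Olig2 (SE), with unadjusted p from 0.207 to 0.935. These intervals are wide, and they do not show that the effects were alike. The 2 comparisons share no library.

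Dividing progenitor genes ran the other way, with 17 of 18 members negative, 0 passing and a median of -0.58. Their summed level was 2699, 3018, 3008 and 2334 CPM untreated and 826.1, 1666, 2252 and 2315 CPM loaded, so every loaded library lay below every untreated one, replicate 4 by a small margin. Mki67, the proliferation antigen, had 215, 195, 199 and 163 CPM untreated and 68.1, 88.6, 72.6 and 141 CPM loaded (log2 difference -1.06 ± 0.53, SE; 95% interval -2.16 to 0.04). Nusap1, a protein of the mitotic spindle, had 166 to 251 CPM untreated and 61.1 to 121 CPM loaded, and the replication helicase subunit Mcm7 136 to 254 and 53.5 to 200 CPM. Top2a, which untangles chromosomes, and Hmgb2 had overlapping groups and log2 differences of -0.69 ± 0.58 and -0.57 ± 0.41 (SE). In neurons alone 10 of the 18 were positive, with a median of 0.05, and no member had an interaction with an unadjusted p under 0.05. The median was -0.33, with 15 of 18 negative, without both replicate 1 libraries.

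**Figure D3:**
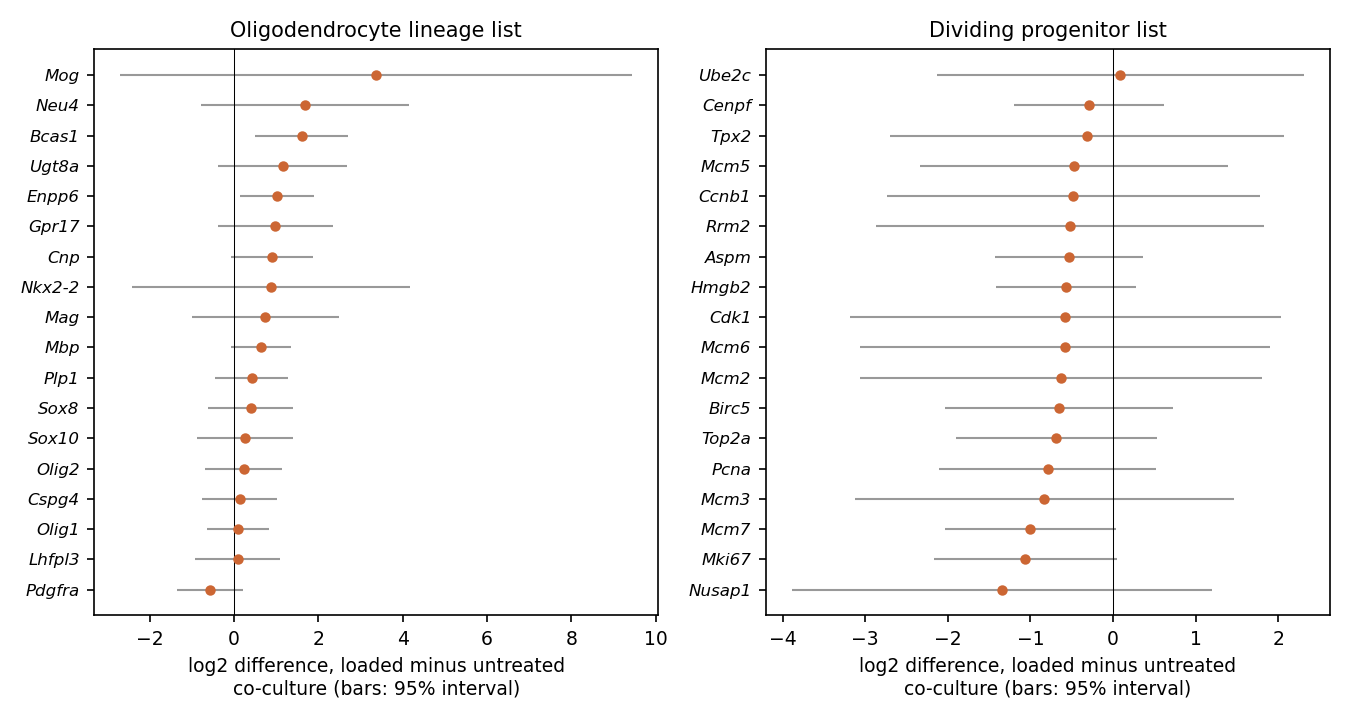
Log2 difference, loaded minus untreated co-culture, of each tested member of the oligodendrocyte-lineage list (left) and the dividing progenitor list (right), with 95% intervals from edgeR as bars. All but Pdgfra of the former lay above 0 and all but Ube2c of the latter below 0, and the intervals of all but Bcas1 and Enpp6 included 0.

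Astrocyte genes had a negative median of -0.33, with 14 of 18 members negative, but this turned to 0.33, with 14 positive, without untreated replicate 4. That library held 12070 CPM of astrocyte markers against 2606 to 4646 CPM in the other untreated ones. By replicate number, the summed level was lower in the loaded library for 3 of 4 and higher for 1. Slc1a2, the main glutamate transporter of astrocytes, had 700, 709, 527 and 3460 CPM untreated and 873, 484, 256 and 1500 CPM loaded. Replicate 4 was thus the highest for Slc1a2 in both groups, and only its untreated library was left out for the median of 0.33. Aldh1l1, a folate enzyme used as an astrocyte marker, had 26.6, 22.3, 21.2 and 71 CPM untreated and 6.78, 18.8, 20.4 and 13.4 CPM loaded, without overlap, while in neurons alone its log2 difference was positive (1.54 ± 0.61, SE). Its interaction was -2.79 ± 0.86 (SE; unadjusted p = 0.0036), and it did not pass after adjustment in edgeR (adjusted p = 1). In neurons alone 17 of the 18 astrocyte genes were positive, with a median of 0.64, and 3 had an unadjusted p under 0.05. The interaction was negative for 17 of 18 (median -1.18), and 1 had an unadjusted p under 0.05, against 2.35% of all genes with a lower value in co-culture.

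Neuronal and synaptic genes were mostly lower in loaded co-cultures, with wide intervals. Of 18 neuronal identity genes 12 were negative (median -0.45), of 16 excitatory neuron genes 14 (median -0.87), of 27 presynaptic genes 21 (median -0.64) and of 24 postsynaptic genes 16 (median -0.32). None passed, and 0, 1, 1 and 1 had an unadjusted p under 0.05 with a negative sign, against 2.14% of all genes. Camk2a, the calcium-dependent kinase of excitatory synapses, had 83.0, 631, 231 and 167 CPM untreated and 30.8, 49.9, 112 and 272 CPM loaded (log2 difference -1.26 ± 0.73, SE). Nrgn, a calmodulin-binding protein of dendritic spines, had 117, 1200, 912 and 235 CPM untreated and 150, 215, 586 and 413 CPM loaded, and the untreated libraries differed among themselves more than the groups did. Syn2, a protein of synaptic vesicles, had 131, 168, 127 and 78.6 CPM untreated and 80.9, 58.8, 60.5 and 52.7 CPM loaded (-1.0 ± 0.46, SE; unadjusted p = 0.0408). Thy1, a surface protein of mature neurons, had 24.8 to 71.8 CPM untreated and 17.1 to 48.7 CPM loaded.

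The presynaptic median was -0.01 without untreated replicate 3 and -0.96 without loaded replicate 3, so it rested on single libraries. In neurons alone none of the 18 identity, 16 excitatory or 27 presynaptic genes had a positive difference, with medians of -0.69, -0.80 and -0.80, and 3, 1 and 1 had an unadjusted p under 0.05 against 2.89% of all genes in that direction. Of the 24 postsynaptic genes 4 were positive there (median -0.66), and 2 had an unadjusted p under 0.05 with a negative sign. Summed excitatory markers were 920.2, 3192, 2274 and 1866 CPM untreated and 790.8, 777.7, 1614 and 1940 CPM loaded, which overlapped, and no identity, excitatory or presynaptic gene had an interaction with an unadjusted p under 0.05, while 1 postsynaptic gene did.

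Genes tied to synuclein and to fibril uptake had no common direction. Sncb, β-synuclein, had 43.1, 86.0, 162 and 28.2 CPM untreated and 0.158, 12.8, 46.2 and 105 CPM loaded. Among the 18 synuclein and Parkinson's disease genes tested, 8 were positive and the median was -0.06. Their summed level was 1033 to 1496 CPM untreated and 1185 to 2157 CPM loaded, which overlapped. By replicate number, this sum was higher in each loaded library than in its untreated counterpart. Of the 21 genes of fibril binding and uptake tested, 10 were positive (median -0.05).

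Log2 differences of tunnelling nanotube and actin protrusion genes centred near 0. Of 29 tested, 16 were positive, the median was 0.01, and 0 had an unadjusted p under 0.05. Their summed level was 3146 to 3243 CPM untreated and 3247 to 3456 CPM loaded. Every loaded library thus lay above every untreated one in the sum, by a small margin. Cdc42, the GTPase that drives filopodia, had 451, 485, 426 and 425 CPM untreated and 560, 484, 535 and 488 CPM loaded, and its 95% interval of -0.28 to 0.70 leaves out a 2-fold difference in either direction. Endosome and Rab genes had a median of 0.07, with 18 of 33 positive. Ehd1 and its relative Ehd4 were the 2 with an unadjusted p under 0.05. Ehd4 had 0.872, 7.33, 4.83 and 4.92 CPM untreated and 89.1, 27.1, 4.95 and 12.9 CPM loaded, so its difference came mainly from loaded replicates 1 and 2. Rab5c, a GTPase of early endosomes, had 321 to 474 CPM untreated and 324 to 1280 CPM loaded, with loaded replicate 1 far above the rest.

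Degradation pathways showed no common shift. Lysosomal genes had a median of 0.12 (20 of 31 positive), autophagy genes 0.01 (16 of 30), proteasome genes 0.04 (16 of 31) and cytosolic chaperones 0.06 (16 of 28), and 0 passed in any of them. Ctsd, the lysosomal protease that cleaves α-synuclein, had 267, 102, 213 and 154 CPM untreated and 974, 213, 204 and 129 CPM loaded. Its log2 difference of 1.04 was -0.03 without loaded replicate 1, the library with the most microglial RNA. Without both replicate 1 libraries it was 0.21, and the part of microglial RNA in it was not tested. Lamp1, a membrane protein of lysosomes, lay at 0.02 ± 0.30 and Sqstm1, the autophagy receptor p62, at -0.10 ± 0.32 (SE). Atp6v0c, a subunit of the lysosomal proton pump, had 266, 413, 455 and 378 CPM untreated and 701, 529, 593 and 341 CPM loaded (0.52 ± 0.27, SE). Psma7, a subunit of the proteasome core, had 83.0, 161, 145 and 127 CPM untreated and 263, 267, 204 and 143 CPM loaded (0.77 ± 0.30, SE; unadjusted p = 0.0173). Psmd13 of the regulatory cap had 122 to 174 CPM untreated and 147 to 643 CPM loaded. Atg12, which conjugates to Atg5 as autophagosomes form, had a log2 difference of -0.93 ± 0.43 (SE).

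Chaperones of the endoplasmic reticulum were the secretory genes that leaned one way, with 18 of 20 positive, 0 passing and a median of 0.42. Summed, they reached 2044, 2918, 2620 and 3056 CPM untreated and 2953, 3501, 4239 and 3631 CPM loaded, with loaded replicate 1 inside the untreated range. Calr (chr8:84841850-84846934, minus strand), a calcium-binding lectin chaperone, had 343, 517, 368 and 477 CPM untreated and 556, 707, 779 and 570 CPM loaded, without overlap (log2 difference 0.62 ± 0.28, SE; 95% interval 0.05 to 1.19; unadjusted p = 0.0352). Hspa5, the main chaperone of this compartment, had 217, 399, 514 and 718 CPM untreated and 412, 515, 814 and 701 CPM loaded (0.40 ± 0.34, SE). Hsp90b1 and Canx had log2 differences of 0.50 ± 0.30 and 0.44 ± 0.28 (SE). Without any 1 co-culture library 16 to 19 members stayed positive, with medians of 0.35 to 0.50. In neurons alone 10 of 20 were positive (median -0.05), and Hsp90b1 had an interaction of 1.05 ± 0.43 (SE; unadjusted p = 0.0221). Genes of the integrated stress response, which accompanies this compartment's stress, had a median of -0.10 with 9 of 23 positive.

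Glycolysis and hypoxia genes were lower in 22 of 26 cases, with a median of -0.37, and 4 had an unadjusted p under 0.05 against 2.14% of all genes in that direction. These were Vegfa, given above, Bnip3, Pdk1 and Tpi1. Bnip3, a mitochondrial protein of mitophagy induced by low oxygen, had 21.8, 68.2, 137 and 47.7 CPM untreated and 15.5, 38.9, 39.7 and 26.6 CPM loaded. Pdk1, the kinase that closes pyruvate's entry to mitochondria, had 14.7, 23.8, 27.4 and 19.9 CPM untreated and 4.57, 0, 0 and 7.90 CPM loaded, without overlap. Tpi1, a glycolytic isomerase, had 83.2 to 157 CPM untreated and 22.6 to 100 CPM loaded, and both Bnip3 and Tpi1 overlap an opposite-strand gene at the 3′ end. The list's median was -0.53 without both replicate 1 libraries and -0.16 without untreated replicate 3. In neurons alone 13 of 26 were positive, with a median of -0.04.

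**Figure D4:**
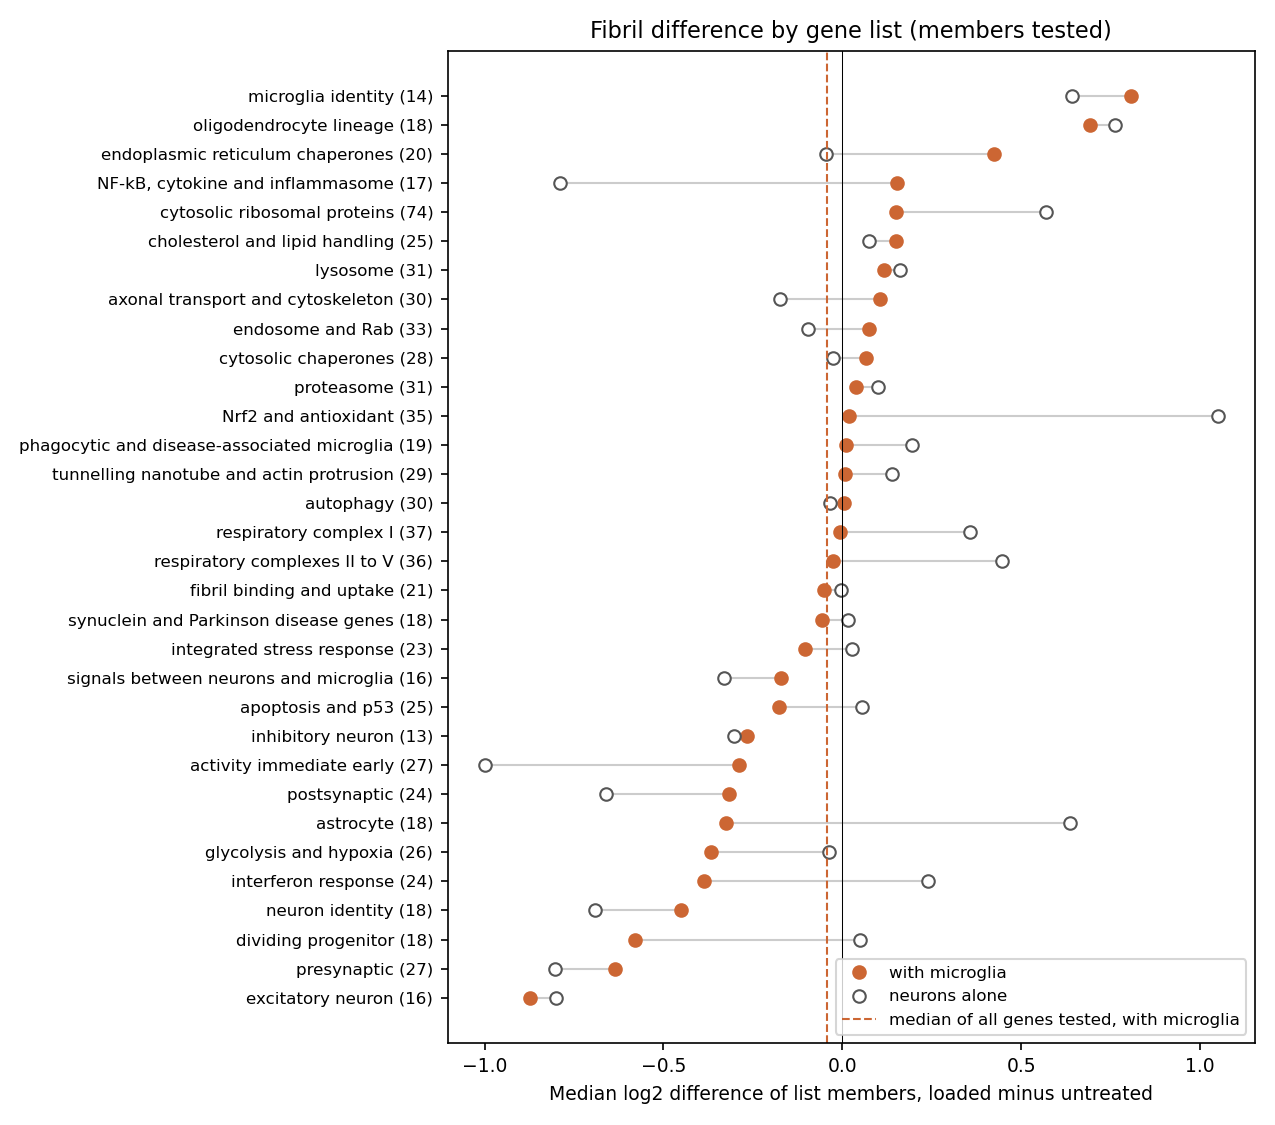
Median log2 difference, loaded minus untreated, of the tested members of 32 gene lists in co-culture (filled) and in neurons alone (open), with the number tested in parentheses and the co-culture median of all genes as a dashed line. In co-culture the oligodendrocyte-lineage median was 0.69 and the excitatory neuron median -0.87, and the antioxidant median was 0.02 against 1.05 in neurons alone.

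Antioxidant genes under the transcription factor Nrf2 had the widest gap between the medians with and without microglia of the 32 lists with at least 5 tested genes. Astrocyte markers had a gap in the same direction: the astrocyte interaction median was -1.18, against -1.11 for the antioxidant list. Summed astrocyte markers were 13830, 4618, 3782 and 4929 CPM in untreated and 14080, 14960, 6766 and 6418 CPM in loaded neurons alone, and their part in the antioxidant values was not tested. Nrf2 is released from Keap1 by oxidants and binds antioxidant response elements near its targets. To show what such an element looks like, the promoters of 3 classical targets are printed, chosen after their values were seen: Srxn1, which repairs oxidised peroxiredoxins, Gclm, a subunit of the enzyme that starts glutathione synthesis, and Txnrd1, thioredoxin reductase. Each runs from 250 bases before to 50 after an annotated start (RefSeq, GRCm38.p6, plus strand), and capitals mark each 9-base match to TGACNNNGC or TGAGNNNGC on either strand. Only windows with a match are printed, so its presence was fixed in advance. The Txnrd1 window is that of a start inside the gene, which begins at base 82833951.
Srxn1, chr2:152105274-152105573: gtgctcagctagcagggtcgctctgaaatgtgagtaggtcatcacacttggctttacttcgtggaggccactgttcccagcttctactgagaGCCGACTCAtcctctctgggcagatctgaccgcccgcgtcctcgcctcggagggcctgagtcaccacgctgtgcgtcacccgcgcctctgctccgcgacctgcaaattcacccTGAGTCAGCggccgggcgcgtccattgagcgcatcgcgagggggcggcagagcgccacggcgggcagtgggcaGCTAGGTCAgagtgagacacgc
Gclm, chr3:122245307-122245606: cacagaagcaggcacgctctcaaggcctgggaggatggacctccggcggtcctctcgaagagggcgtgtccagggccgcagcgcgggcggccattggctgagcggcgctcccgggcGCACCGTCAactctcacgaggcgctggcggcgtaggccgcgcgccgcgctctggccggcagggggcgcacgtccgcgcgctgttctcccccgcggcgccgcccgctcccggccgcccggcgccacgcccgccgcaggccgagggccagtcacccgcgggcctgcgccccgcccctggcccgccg
Txnrd1, chr10:82858956-82859255: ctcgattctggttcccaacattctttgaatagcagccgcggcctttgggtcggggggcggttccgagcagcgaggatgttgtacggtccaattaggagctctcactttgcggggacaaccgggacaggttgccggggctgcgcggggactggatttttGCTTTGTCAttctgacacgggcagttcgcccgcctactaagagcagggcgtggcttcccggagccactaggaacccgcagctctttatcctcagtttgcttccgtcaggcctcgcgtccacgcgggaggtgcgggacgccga
Such letters occur in 27.8% of all 32851 promoter windows of this length and in 16 of the 39 windows of antioxidant genes (41%). By gene, 8314 of 27025 (30.8%) have a window with a match, and 16 of the 30 antioxidant genes with a window (53.3%). A match is a description of the letters only.

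In co-culture the levels of these 3 genes overlapped between loaded and untreated libraries, and wide intervals leave their differences unresolved. Srxn1, with 3 matches, had 225, 218, 359 and 452 CPM untreated and 221, 152, 208 and 677 CPM loaded, a log2 difference of 0.00 ± 0.44 (SE; 95% interval -0.92 to 0.93). Without loaded replicate 4, the highest of the 8, it was -0.70. Gclm and Txnrd1, with 1 match each, lay at -0.15 ± 0.55 and -0.22 ± 0.47 (SE), and at -0.45 and -0.57 without that library. In neurons alone Srxn1 had 903, 405, 668 and 365 CPM untreated and 1910, 1870, 1130 and 673 CPM loaded (1.26 ± 0.45, SE), and Gclm and Txnrd1 differed by 1.19 ± 0.55 and 1.03 ± 0.47 (SE). The 3 highest Srxn1 values of all 16 libraries were those of loaded neurons without microglia, but the fourth, 673 CPM, lay inside the untreated range there, so the groups overlapped in both settings. Matched by replicate number, a comparison chosen after seeing the data, each loaded library of neurons alone lay above its untreated counterpart for Srxn1. In co-culture the direction for Srxn1 differed between replicate numbers.

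The rest of the antioxidant list followed these 3. In co-culture 19 of 35 members were positive, the median was 0.02 and 0 had an unadjusted p under 0.05. In neurons alone 33 of 35 were positive, the median was 1.05 and 16 had an unadjusted p under 0.05 in that direction, against 4.03% of all genes, although by edgeR 0 of 13139 genes were called there (909 with an unadjusted p under 0.05, 6.92%). The interaction was negative for 32 of 35 (median -1.11), and 7 had an unadjusted p under 0.05, against 2.35% of all genes that reached this with a lower value in co-culture. No interaction passed in edgeR over all genes (0 called, 529 with an unadjusted p under 0.05, 4.03%).

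Hmox1, heme oxygenase, had 157, 294, 357 and 457 CPM in untreated and 485, 247, 190 and 360 CPM in loaded co-cultures. In neurons alone it had 714, 344, 525 and 142 CPM untreated and 1790, 2110, 888 and 354 CPM loaded, and its interaction was -1.56 ± 0.73 (SE; unadjusted p = 0.0468). Gstm1, a glutathione transferase, had 567, 789, 757 and 1440 CPM untreated and 704, 581, 249 and 918 CPM loaded in co-culture. It had 1600, 810, 900 and 647 CPM untreated and 4060, 3960, 2350 and 817 CPM loaded in neurons alone, with an interaction of -2.03 ± 0.65 (SE; unadjusted p = 0.0051). The groups of Hmox1 and of Gstm1 overlapped in neurons alone, through loaded replicate 4. For both genes each loaded library of neurons alone lay above the untreated one of the same replicate number. In co-culture the direction differed between replicate numbers. Ftl1, the light chain of ferritin, was positive in both settings, at 0.66 ± 0.38 in co-culture and 1.24 ± 0.38 alone (SE). Nqo1, a quinone reductase, was at most 15.1 CPM in all 8 co-culture libraries and has no usable estimate there (1.05 ± 1.64, SE).

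Nuclear genes of mitochondrial respiration and of the ribosome also had higher medians in neurons alone than in co-culture. Complex I had a median of -0.01 in co-culture (18 of 37 positive, 0 with an unadjusted p under 0.05) and 0.36 in neurons alone (28 of 37, 11 with an unadjusted p under 0.05 and higher, against 4.03% of all genes). Complexes II to V had medians of -0.03 (14 of 36 positive) and 0.45 (28 of 36, 13 with such a p). Cytosolic ribosomal proteins were mostly positive in both settings, with medians of 0.15 (55 of 74) and 0.57 (63 of 74, 32 with such a p). The interaction was negative for 30 of 37, 31 of 36 and 61 of 74 members, with medians of -0.41, -0.37 and -0.38. An interaction with an unadjusted p under 0.05 was reached by 4 of 37, 4 of 36 and 2 of 74, against 4.03% of all genes in either direction. Ndufb4, an accessory subunit of complex I, had 50.2, 61.9, 91.2 and 117 CPM untreated and 73.5, 42.9, 39.7 and 50.5 CPM loaded in co-culture, against 30.3, 55.2, 37 and 26.9 CPM and 119, 141, 73.4 and 137 CPM in neurons alone. Its groups overlapped in co-culture and not in neurons alone, and its interaction was -2.29 ± 0.57 (SE; unadjusted p = 5.2e-04; adjusted p = 1 in edgeR). Ndufs7 had an interaction of -1.43 ± 0.50 (SE), while Ndufb2 was positive in both settings, at 0.62 ± 0.34 and 0.54 ± 0.34 (SE). Rpl13a, a ribosomal protein whose gene overlaps a small nucleolar RNA, had 637, 633, 634 and 565 CPM untreated and 1410, 782, 847 and 676 CPM loaded in co-culture, without overlap.

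**Figure D5:**
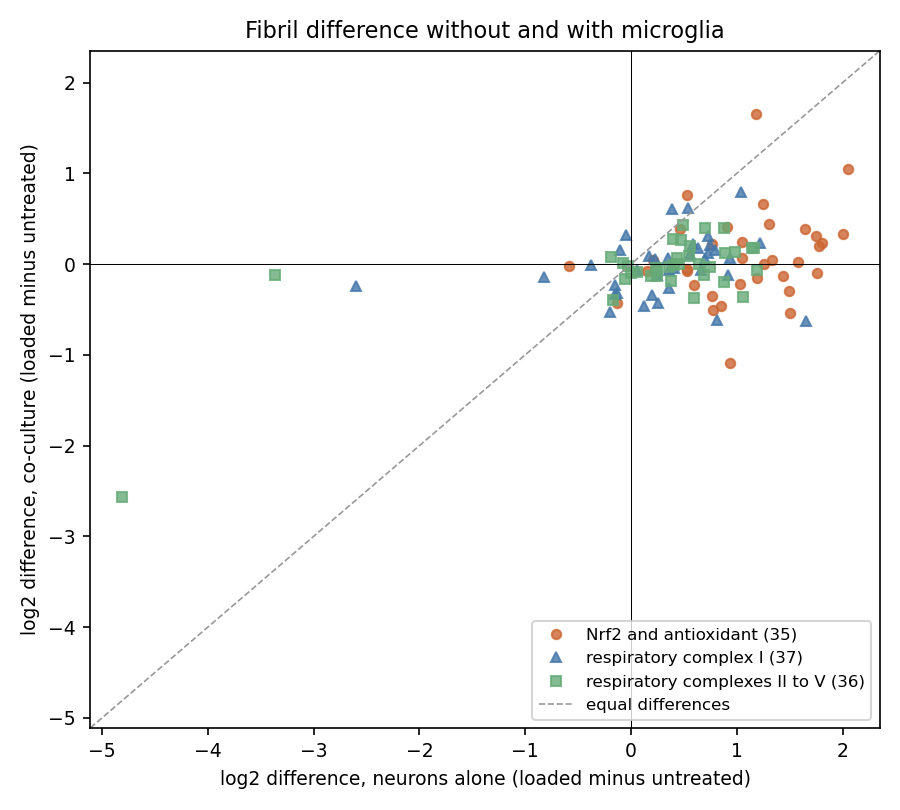
Log2 difference with fibrils in neurons alone (horizontal) and in co-culture (vertical) for each tested antioxidant gene (circles), complex I gene (triangles) and gene of complexes II to V (squares), with a dashed line at equal differences. Most antioxidant genes lay to the right of 0 (33 of 35) while in co-culture they spread around 0 (19 of 35 above it).

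Inflammatory programs could not be resolved in co-culture. Genes of the NF-kB, cytokine and inflammasome list had a median of 0.15 with 12 of 17 tested positive, and it was -0.16 without loaded replicate 1. Interferon response genes had a median of -0.39 (8 of 24 positive), and genes of phagocytic and disease-associated microglia of 0.01 (10 of 19). C1qa, a complement subunit made by microglia, had 62.7, 2.12, 0 and 4.12 CPM untreated and 222, 0, 13.7 and 0 CPM loaded, and Cx3cr1, the fractalkine receptor of microglia, had 35.9, 0.423, 0 and 0 CPM and 154, 0, 6.38 and 0.229 CPM. Both genes were thus abundant in replicate 1 of each group, the libraries rich in microglial RNA, whose part in these values was not tested. Among signals between neurons and microglia, with 7 of 16 positive, Sirpa, the receptor of the CD47 "don't eat me" signal, had 93.9, 84.7, 34.3 and 74.3 CPM untreated and 30.8, 9.75, 23.7 and 63 CPM loaded (log2 difference -1.18 ± 0.55, SE; unadjusted p = 0.0441). Immediate early genes of neuronal activity had a median of -0.29 (18 of 27 negative) and turned to 0.20 without untreated replicate 3. Klf6, the member of that list with the smallest p, had 158, 67.4, 103 and 106 CPM untreated and 72.9, 39.6, 85.7 and 57.7 CPM loaded. In neurons alone none of the 27 was positive, with a median of -1.0.

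Across all genes the 2 fibril comparisons were weakly alike. The sign was the same in 7263 of 13139 genes, and in 5249 of the 9402 whose mean log2 CPM exceeded 2. Over those 9402 genes the Pearson correlation of the log2 differences was 0.156 and the Spearman correlation 0.162, a description across genes, which are not independent replicates. Of all 483 genes with an unadjusted p under 0.05 in co-culture, 284 had the same sign in neurons alone. Among the 134 of them above that level, 93 did. An unadjusted p under 0.05 in both comparisons was seen for 68 genes, 44 of them with the same sign. In neurons alone 6.92% of all genes had such a p. Above that level 18 genes had it in both, among them Sirt2, Ehd1, Bcas1, Enpp6, Ssbp3, Syn2, Bnip3 and Klf6, each with the same sign. A pseudogene among the 18 had opposite signs, with log2 differences of -3.96 in co-culture and 2.76 in neurons alone. Of the 10 genes of smallest p named above in each direction, 8 of the positive and 6 of the negative ones had the same sign in neurons alone. Of the positive ones, Hipk2 and Arfgap1 did not, at -0.10 ± 0.42 and -0.09 ± 0.52 (SE). Their interactions were 1.47 ± 0.60 and 1.80 ± 0.74 (SE, edgeR unadjusted p = 0.0216 and 0.0237). Of the negative ones, Zfp787 and Ciao2b lay at 0.55 ± 0.50 and 0.21 ± 0.55 in neurons alone (SE). Their interactions were -1.96 ± 0.72 and -1.62 ± 0.78 (SE, edgeR unadjusted p = 0.0117 and 0.0490). Vegfa and Fxyd7 lay at 0.00 ± 0.43 and 0.03 ± 0.85 in neurons alone (SE).

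The 130 genes called by DESeq2, 44 higher and 86 lower, were a class of their own. Of these, 128 (98.5%) had a 0 in a co-culture library, against 38.3% of all genes tested, and in each of the 128 at least 3 of the 4 libraries of a group were at 0. Their median absolute log2 difference of 21.7 is no measured fold, since a fold against zeros has no estimate, and 1 of the 130 had a mean log2 CPM above 2 and no library at 0. Il34, a ligand of Csf1r made by neurons, had counts of 0, 41, 179 and 22 in untreated co-cultures and 0 in all 4 loaded ones. Shank3, a scaffold of excitatory synapses, had counts of 212, 54, 0 and 121 untreated and 0 in all 4 loaded ones. Both had a 0 in an untreated co-culture too, and no fold is given. In loaded neurons alone Il34 had counts of 324, 43, 46 and 136, so it was detected in all 4 of those libraries. Shank3 ran from 0 to 15.8 CPM in loaded neurons alone, so a 0 occurred for it there too. In edgeR their unadjusted p was 0.0012 and 0.0019, with an adjusted p of 1.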

How the data were processed

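RNA was isolated with the RNeasy micro kit and libraries were made with the QuantSeq 3′ forward kit, per the labels' protocols. Reads were aligned to mm10, and STAR, Partek and DESeq2 were used, in roles and versions that the submitters' processing notes do not give. The counting tool, strand setting, annotation and use of molecular identifiers are not given in the sources used here. Raw counts of 16934 genes, as the authors deposited them, were used for all main results. The second table the authors deposited holds a score per gene, their normalized values rounded to whole numbers, and was used as an alternative with a pseudocount of 1.

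Counts were analysed with edgeR 4.0.16 in R 4.3.3: filterByExpr (minimum count 10, minimum total 15) kept 13139 genes, TMM scaled the libraries, and robust quasi-likelihood fits with 1 mean for each group took in all 16 libraries, which then share an estimate of the spread (biological coefficient of variation 1.17). Contrasts were fibrils in co-culture, fibrils in neurons alone and their interaction, each with Benjamini-Hochberg adjustment over all genes and a threshold of 0.05. Log2 CPM used a prior count of 2. DESeq2 1.42.0, limma-voom and limma 3.58.1 on the authors' values, other scalings and filters, a replicate block and the removal of libraries were the alternatives. The tests across genes were tested on simulated data. There edgeR did not call all of the large differences that were put in. Python 3.11.15 with pandas 2.3.3 and matplotlib 3.10.9 made the tables and plots. Positions come from GENCODE M21 on GRCm38 and promoters from RefSeq. Olig1, Mcm7, Aldh1l1, Hsp90b1, Ndufb2, Csf1r, Cx3cr1, Lamp1, Sqstm1 and Gclm also overlap an opposite-strand gene at the 3′ end, with the same uncertainty. Libraries of a group differed far beyond sampling noise (chi-square per degree of freedom at least 91.8), so each was counted once. PCR copies are not independent molecules, and floors cover counting error only.

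Replicate numbers follow accession order and were not used as pairs in the main tests. With fewer than 10 called, the 10 of smallest p in each direction were named, at a mean log2 CPM above 2 over the co-cultures. Predicted gene models and pseudogenes were left out of these. From each of 33 lists came the 4 of smallest p, the first 2 and, for cell types, the 5 most abundant, of which a part is printed. Some genes that the rule covers are not reported here. Srxn1, Gclm and Txnrd1 fall outside this rule. The comparison and the lists were chosen with earlier results of these data known, so list counts are descriptions without a test.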

Additional observations from a re-analysis of the deposited data

Results flagged for a closer look

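In groups of 4 libraries, a library was singled out when its gap to the nearest other, as a share of the group's range, exceeded Dixon's 95% critical value, which chance does in about 1 of 20 groups, and 9 values were singled out in 218 groups examined. Replicate 4 of the untreated co-cultures stood high for Slc1a2 (3460 CPM) and Mbp (338 CPM) and low for Rpl13a (565 CPM). Replicate 1 stood high for Csf1r in both co-culture groups, with 64.4 CPM untreated and 287 CPM loaded, and loaded replicate 1 stood low for Nqo1, at 0 CPM where the other loaded libraries had 7.79 to 15.1 CPM. Untreated replicate 2 stood high for Pam (213 CPM) and for Mog (1.83 CPM, with the other untreated libraries at 0), and untreated replicate 3 stood low for Zfp787 (32.9 CPM). Without untreated replicate 2 the log2 difference of Pam was -0.92, and edgeR called no gene in co-culture with or without any 1 of these libraries.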

How the results depend on the processing

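The count of genes called for fibrils in co-culture was 0 under every scaling, filter and edgeR or limma alternative and, in edgeR, without any 1 co-culture library, and DESeq2 gave 130. For the interaction it was 0 except with DESeq2 (187), and for neurons alone 0 except with DESeq2 (173), with a range of 0 to 7 when 1 library was left out (7 without replicate 4 of the loaded neurons alone). Of 32 lists with at least 5 tested genes, 15 had a positive median and 8 with library totals as the scaling, which moved the median of all genes from -0.04 to -0.11. Of 77 genes named, 63 kept their sign under 12 other settings and without each of the 8 co-culture libraries. Library totals turned Hmox1 to -0.0516, Lamp1 to -0.0588 and Srxn1 to -0.0296. Olig2 and C1qa became -0.016 and -0.361 with limma-voom and -0.12 and -0.203 with limma on the authors' values. Srxn1, at 0.00, was -0.00309 with DESeq2 and with its size factors, -0.22 with limma-voom, -0.193 on the authors' values, -0.00951 from the 8 co-culture libraries alone and -0.000673 without both replicate 1 libraries, where Hmox1 was -0.487. With the replicate number as a block, Hmox1 was -0.109 and Srxn1 -0.0735, 0 genes were called in co-culture, in neurons alone and for the interaction, and 326 co-culture genes had an unadjusted p under 0.05, against 483 without the block, 189 from the 8 co-culture libraries alone and 347 without both replicate 1 libraries. Deviations of same-numbered co-culture libraries correlated at 0.13, -0.0457, 0.112 and 0.0454, which is not above 0.1 in each, so the numbers were not taken as pairs, though 3 of the 4 untreated and 2 of the 4 loaded libraries correlated best with their own number. The library numbers in the titles fall into the same 4 runs, each with 1 library of each group, and what a run stands for is not stated. Within all 4 runs, a check chosen after seeing the data, the summed level was higher in the loaded library for 9 of 33 lists, among them oligodendrocyte-lineage genes, endoplasmic reticulum chaperones and microglial identity genes, and lower for 2, dividing progenitor and interferon response genes. With the block their medians were 0.57, 0.44, 1.27, -0.51 and -0.39. The tunnelling nanotube list and the synuclein list were also among the 9 with a higher sum. How many lists would keep 1 direction by chance was not worked out, and lists that share members are not independent. For microglial identity genes, replicate 4 had 15.3 CPM untreated and 17.4 CPM loaded, with most members at 0, so no rise can be read there. Without 1 co-culture library in turn, Hmox1 lay between -0.263 and 0.251, Srxn1 lay between -0.697 and 0.234, Lamp1 lay between -0.148 and 0.204, Olig1 lay between -0.0208 and 0.274, Cspg4 lay between -0.246 and 0.421, Sqstm1 lay between -0.272 and 0.0784, Gclm lay between -0.454 and 0.104, Txnrd1 lay between -0.571 and 0.0512, Slc1a2 lay between -1.33 and 0.269, Csf1r lay between -7.01 and 12.4, C1qa lay between -1.93 and 4.82, Cx3cr1 lay between -2.06 and 8.14, Ctsd lay between -0.0309 and 1.33 and Olig2 between -0.0635 and 0.564. The cause of these shifts was not tested. The spread between libraries and the many zeros limit all values, and a 2-fold difference lay within the 95% interval of most genes.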

Other observations

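Genes of cholesterol and lipid handling had a median log2 difference of 0.15 (14 of 25 positive), -0.31 without loaded replicate 4. Those of axonal transport and the cytoskeleton had a median of 0.11 (17 of 30 positive), and those of apoptosis and the p53 response of -0.18 (10 of 25 positive). Inhibitory neuron markers had a median of -0.27 (4 of 13 positive), and -1.64 without loaded replicate 3, the library in which they summed highest (231.6 CPM). For the 1660 genes above 100 CPM, the median SD of log2 CPM between libraries was 0.404 in untreated and 0.436 in loaded co-cultures. It was 0.455 and 0.488 in untreated and loaded neurons alone. These genes were chosen by their mean log2 CPM over the co-culture libraries only, so both settings are not on an equal footing.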
